A study of Mus musculus with 8 samples.

Results

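The 33 genes described here encode glucose transporters, the enzymes of glycolysis, lactate transporters, the regulators that set glycolytic flux, and the oxygen-sensing machinery built around hypoxia-inducible factor (HIF). They were taken by symbol from the deposited count table of 48440 genes, and all 33 were found. The table came from RNA sequencing of macrophages, sorted as CD11b+, F4/80+ cells from islets of 16-week-old male wild-type C57BL/6J mice. The diets compared were chow (8% fat, 21% protein and 71% carbohydrate, 10.88 kJ/g) and a high fat diet, HFD (45% fat, 20% protein and 35% carbohydrate, 19.67 kJ/g). Both diets were given for 8 weeks from 8 weeks of age. Each of the 4 libraries per diet pooled RNA from 2 mice, so the spread between libraries is not the spread between single animals. Because RNA was measured in bulk, fewer cells of a type and less RNA per cell cannot be told apart.

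Glucose enters macrophages through facilitative transporters of the GLUT family, is trapped as glucose 6-phosphate by hexokinase, and is broken down by glycolysis to pyruvate, which lactate dehydrogenase can reduce to lactate for export by monocarboxylate transporters. HIF-1, a dimer of HIF-1 alpha and ARNT, drives transcription of many of these genes. In oxygen, prolyl hydroxylases mark HIF-1 alpha for capture by the VHL protein and degradation, so HIF activity is set largely at the protein level. Inflammatory macrophages are known for high glycolytic flux, and islets for high oxygen demand.

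HIF-1 binds DNA at a short core, ACGTG or GCGTG, on either strand. RefSeq promoter windows (GRCm38.p6, 250 bases before to 50 after a transcript start) were present for 31 of the 33 genes. At least 1 core was found in a window of 27 of these 31 genes (87.1%), against 46.7% of all genes with a window and 68.6% of genes that were tested for diet. The stricter form ACGTG was found in 20 of the 31 (64.5%), against 21.8% of all genes and 30.3% of tested genes. A gene with more windows has more places for a match, and members had 45 windows for 31 genes, tested genes 9265 for 7273. Per window, a core was found in 80.0% for members, 62.5% for tested genes and 43.8% for all genes. For ACGTG these shares were 51.1%, 26.1% and 19.6%. Base composition differed little from tested genes: member windows had 61.0% G and C and 19.3 CG dinucleotides on average, and windows of tested genes 60.6% and 21.2. On both strands ACGTG overlaps the E-box CACGTG, which 7 of the 45 member windows held. Neither core was found in a window of Eno2, Gpi1, Tpi1 or Vhl. Shown here are windows of the genes with the lowest and the highest log2 fold change among tested members. These are Slc2a1 (chr4:119108495-119108794, plus strand) and Pfkl (chr10:78009758-78010057, minus strand). The third window is that of Ldha (chr7:46845554-46845853, plus strand), which had the most cores when each CACGTG counts on both strands. Each is written 5′ to 3′, with the cores in capitals.
Slc2a1: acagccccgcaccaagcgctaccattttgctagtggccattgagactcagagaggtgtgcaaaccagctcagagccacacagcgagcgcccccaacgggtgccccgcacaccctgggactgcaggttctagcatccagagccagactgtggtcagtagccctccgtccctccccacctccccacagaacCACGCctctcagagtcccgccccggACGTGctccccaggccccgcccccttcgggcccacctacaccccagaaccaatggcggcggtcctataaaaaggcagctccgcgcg
Pfkl: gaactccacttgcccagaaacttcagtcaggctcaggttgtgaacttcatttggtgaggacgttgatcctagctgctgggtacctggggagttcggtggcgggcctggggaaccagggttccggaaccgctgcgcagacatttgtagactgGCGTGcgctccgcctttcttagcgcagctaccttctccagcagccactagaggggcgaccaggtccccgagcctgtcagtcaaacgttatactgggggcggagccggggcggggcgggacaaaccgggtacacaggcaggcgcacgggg
Ldha: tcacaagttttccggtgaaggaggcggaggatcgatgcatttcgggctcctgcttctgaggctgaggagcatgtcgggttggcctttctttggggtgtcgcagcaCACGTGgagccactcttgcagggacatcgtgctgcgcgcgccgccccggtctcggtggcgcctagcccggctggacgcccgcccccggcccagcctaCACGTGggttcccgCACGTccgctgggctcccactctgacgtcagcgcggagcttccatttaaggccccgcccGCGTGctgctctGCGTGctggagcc
The Slc2a1 window held 2 cores, the Pfkl window 1 and the Ldha window 7, where each CACGTG counts as 2 cores. The Ldha window held 2 such sites. The top Egln2 window had 6 cores with 1 such site, and the top Hk1 window 5 with 0. Ldha therefore ties with Egln2 and Hk1, rather than leading alone, when each CACGTG counts as 1. A match describes letters in these windows and says nothing about binding in these cells.

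Library totals were 4288665 to 6391247 counts, and levels are given as CPM, counts per 1000000 of the library total scaled by TMM. All 10 macrophage markers, Adgre1 and Itgam among them, were detected in all 8 libraries, and their summed level was 3694 to 4554 CPM in chow and 3258 to 4014 CPM in HFD. Markers of other cells were also present. Beta cell genes summed to 393 to 1034 CPM in chow and 650.3 to 987 CPM in HFD, although Mafa was at 0 in every library. Stellate cell and fibroblast genes summed to 24.1 to 144 CPM in chow and 547, 352, 287 and 114 CPM in HFD replicates 5 to 8. Rgs5 alone was at 0, 78.2, 127 and 84.7 CPM in chow and 30.9, 50.1, 24.9 and 96.2 CPM in HFD. It made up most of the sum in chow replicates 2 to 4 and in HFD replicate 8. Col1a1, Dcn and Lum were at 0 in every chow library and at 0.199 CPM or less in HFD replicate 8. In HFD replicates 5 to 7 Col1a1 was at 71.9, 40.8 and 30.5 CPM. Other endocrine genes summed to 112 to 859 CPM in chow and 208 to 1104 CPM in HFD, B cell genes to 249 to 452 and 212 to 312 CPM, and dendritic cell genes to 252 to 303 and 141 to 267 CPM. Acinar genes ran from 0.223 to 3339 CPM in chow and 34.7 to 1648 CPM in HFD. Neutrophil markers were at 0 throughout, and of 7 red blood cell markers only Alas2 had any count. Whether RNA of other cells contributes to the levels below was not tested. Marker levels beside a gene, and fits with summed markers as a covariate, are given as values only.

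No glycolysis, glucose transport or hypoxia gene passed the threshold for a diet difference. Of the 33 genes, 26 had enough counts to be tested and 7 did not. Of the 26, 12 had a higher and 14 a lower fitted level in HFD, and the median log2 fold change (HFD over chow) was -0.03, beside -0.02 over all 10129 genes tested, of which 48.6% were higher. The quasi-likelihood test of edgeR called 0 of 26 members at an adjusted p of 0.05, and 0% of all genes. At an unadjusted p under 0.05 it marked 1 member, Slc2a1, beside 5.35% of all genes. DESeq2 called 0 of 29 members it could adjust, beside 0.735% of all genes, with 4 members at an unadjusted p under 0.05, namely Slc2a1, Hk3, Pfkl and Slc16a1, beside 9.61% of all genes. Limma-voom called 0 of 26, beside 0.00987% of all genes, with 0 at an unadjusted p under 0.05, beside 5.42% of all genes. The log2 fold change was smaller than its standard error (SE) in 20 of the 26, and 1 or more in size in 5. The 4 HFD libraries lay wholly below the 4 chow libraries for 2 members, Slc2a1 and Hk3, beside 1.71% of all genes, and wholly above for 0, beside 1.68%. In either direction that is 7.69% of the tested members beside 3.39% of all genes.

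**Figure D1:**
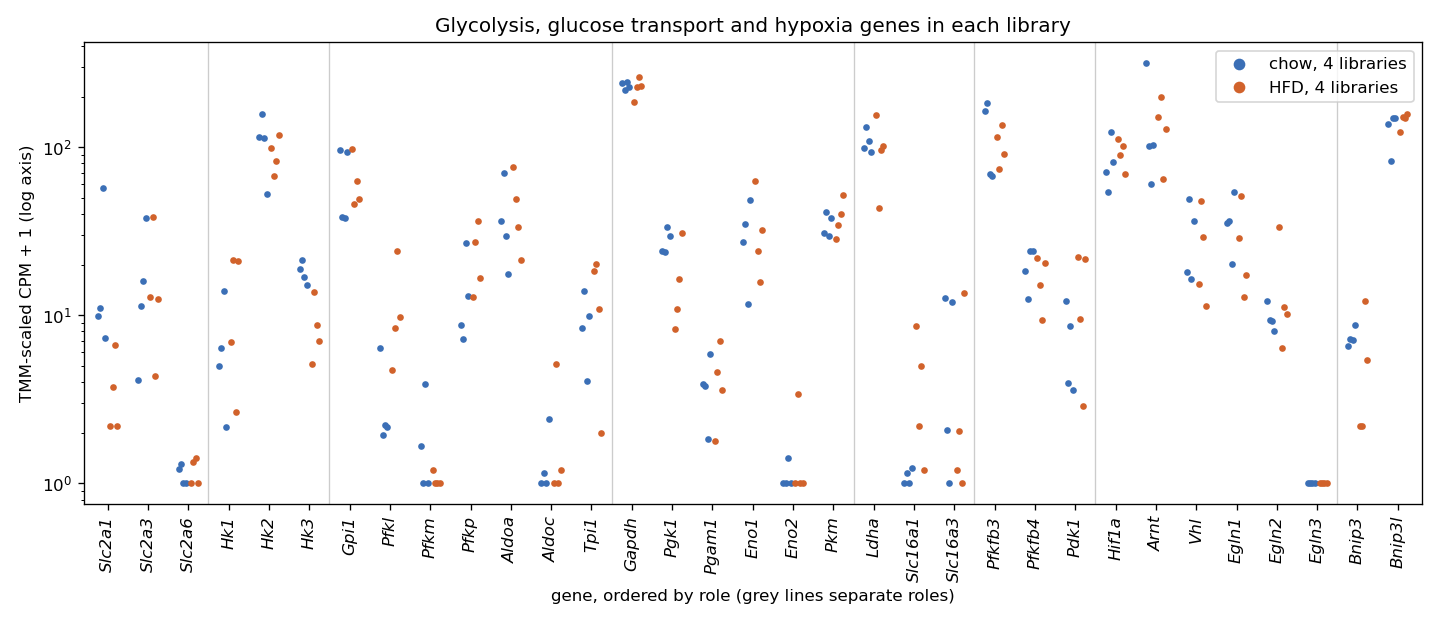
Level of each of the 33 genes in every library, as TMM-scaled CPM plus 1 on a log axis, with chow in blue and HFD in orange. The diets overlap for every tested gene except Slc2a1 and Hk3, and Gapdh has the highest mean, between 184 and 261 CPM.

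**Figure D2:**
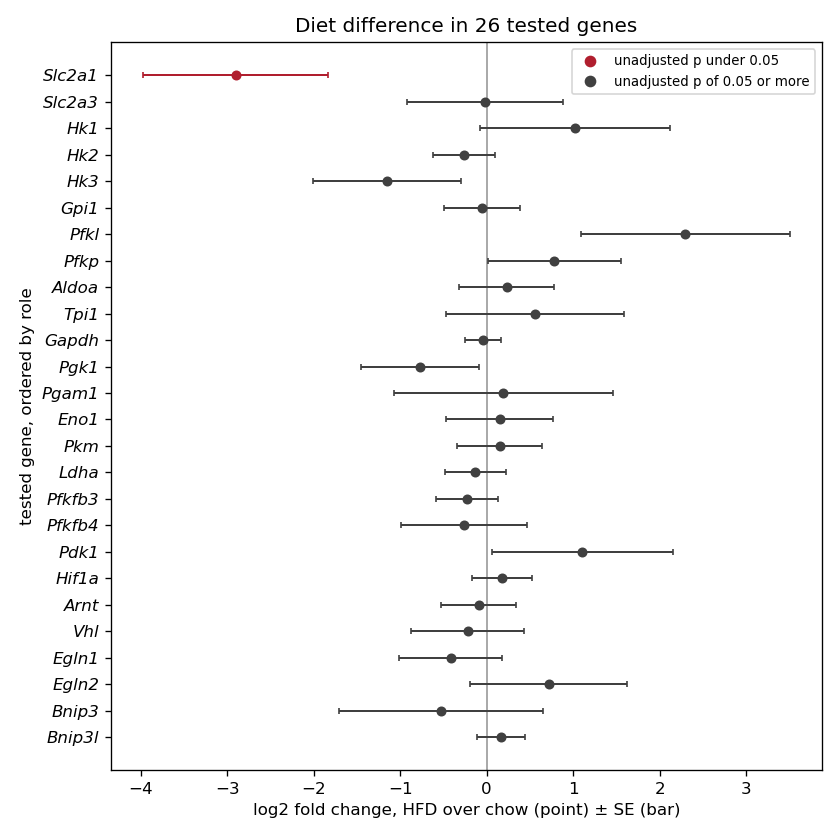
Log2 fold change (HFD over chow) of the 26 tested genes with the SE as a bar, from the edgeR fit. Slc2a1 is lowest at -2.90 and Pfkl highest at 2.30, and 20 of the 26 points lie within 1 SE of 0.

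Among glucose transporters, Slc2a1 had the lowest log2 fold change of all tested members and Slc2a3 had nearly equal means. Slc2a1 (chromosome 4, 119108711 to 119137983) encodes GLUT1, the basal transporter of most cells. It was at 8.91, 10.1, 55.9 and 6.32 CPM in chow replicates 1 to 4 and at 1.18, 2.76, 5.64 and 1.195 CPM in HFD replicates 5 to 8. Every HFD library was below every chow library, but the lowest chow and the highest HFD library were close, and chow replicate 3 stood far above the rest. The log2 fold change was -2.90 (SE 1.07, edgeR adjusted p = 0.75). Without chow replicate 3 it was -1.64 (SE 1.29, edgeR adjusted p = 0.97), and DESeq2 gave an adjusted p of 0.091. Slc2a3, which encodes the high-affinity transporter GLUT3, was at 3.12 to 36.7 CPM in chow and 3.34 to 37.5 CPM in HFD, a spread of over 10-fold within each diet. Slc2a6, a lysosomal transporter gene of macrophages, was not tested, with 1, 2, 0 and 0 counts in chow and 0, 2, 2 and 0 counts in HFD. As a share of the summed level of these 3 transporters per kilobase of exon, Slc2a1 made up 26.2% to 88.5% in chow and 12.9% to 73.1% in HFD, so the shares overlapped.

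Hk2 was the main hexokinase transcript in every library, and Hk3 was the only other tested member whose diets did not overlap. Hk2, the inducible hexokinase bound to mitochondria, was at 114, 156, 112 and 52.0 CPM in chow and 98.1, 66.5, 81.3 and 117 CPM in HFD. Its level was 16.7 CPM per kilobase on average, and it made up 68.8% to 80.9% of the hexokinase level per kilobase in chow and 65.6% to 90.05% in HFD. Hk3 (chromosome 13, 55005985 to 55021385), the hexokinase of myeloid cells, was at 17.8, 20.4, 15.8 and 14.0 CPM in chow and 4.14, 12.7, 7.73 and 5.98 CPM in HFD. The 4 chow libraries were close together and all higher, with HFD replicate 6 nearest to them. The log2 fold change was -1.15 (SE 0.85, edgeR adjusted p = 0.99), and DESeq2 gave an unadjusted p of 0.046 and an adjusted p of 0.50. Hk1, the constitutive hexokinase, was at 4.01, 5.42, 12.9 and 1.17 CPM in chow and 5.91, 20.3, 1.67 and 19.9 CPM in HFD. Its diets overlapped, HFD replicates 6 and 8 being high and HFD replicate 7 low (log2 fold change 1.02, SE 1.10, edgeR adjusted p = 0.99).

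Of the upper glycolysis genes, 5 of 7 were tested, 4 with a higher and 1 with a lower fitted level in HFD, beside the 48.6% higher over all genes. Pfkl (chromosome 10, 77986947 to 78010083), the liver-type subunit of phosphofructokinase-1 and the committed step of glycolysis, was at 5.35, 0.929, 1.23 and 1.17 CPM in chow and 3.74, 7.40, 23.0 and 8.76 CPM in HFD. Chow replicate 1 exceeded HFD replicate 5, and HFD replicate 7 was far above the others. The log2 fold change was 2.30 (SE 1.21, edgeR adjusted p = 0.95), the highest among tested members, on 41 counts in chow and 216 in HFD. Without HFD replicate 7 it was 1.61 and without chow replicate 1 it was 3.24, with edgeR adjusted p-values of 1.00 and 0.78. The platelet-type subunit gene Pfkp was at 7.80, 6.19, 25.9 and 11.9 CPM in chow and 11.8, 26.3, 35.1 and 15.7 CPM in HFD (log2 fold change 0.78, SE 0.77, edgeR adjusted p = 0.99). The muscle-type gene Pfkm was not tested, with 3, 0, 14 and 0 counts in chow and 1, 0, 0 and 0 counts in HFD. Pfkp held 36.8% to 83.6% of the phosphofructokinase-1 level per kilobase in chow and 43.2% to 63.9% in HFD, and Pfkl held 6.20% to 50.6% and 36.1% to 56.8%. Per kilobase the leading subunit thus differed between libraries of the same diet. In CPM, Pfkp was above Pfkl in every library. The order per kilobase rests on the annotated exon lengths, 13.4 kilobases for Pfkp and 6.675 for Pfkl.

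Aldoa, the aldolase that splits fructose 1,6-bisphosphate, was at 35.2, 69.2, 28.6 and 16.6 CPM in chow and 74.7, 48.0, 32.6 and 20.3 CPM in HFD, with wide overlap. Its brain-type paralogue Aldoc was not tested, with 0, 1, 0 and 6 counts in chow and 0, 24, 0 and 1 counts in HFD. The isomerase gene Gpi1 ran from 36.8 to 94.7 CPM in chow and 45.1 to 96.9 CPM in HFD, and Tpi1, the triose phosphate isomerase gene, from 3.08 to 12.9 and from 1.00 to 19.3 CPM. Neither differed beyond its SE, at log2 fold changes of -0.05 (SE 0.44) and 0.56 (SE 1.03).

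Lower glycolysis was led by Gapdh, the most abundant and the steadiest member. Gapdh, which encodes the dehydrogenase that makes 1,3-bisphosphoglycerate, was at 241, 217, 242 and 228 CPM in chow and 184, 227, 261 and 229.8 CPM in HFD. Per kilobase it averaged 55.3 CPM, above 95.9% of tested genes, and its log2 fold change was -0.04 (SE 0.21). Pgk1, the ATP-forming kinase of the next step, was at 22.9, 22.8, 32.5 and 28.6 CPM in chow and 7.29, 9.82, 15.5 and 29.9 CPM in HFD. HFD replicates 5, 6 and 7 were below all chow libraries and HFD replicate 8 was not (log2 fold change -0.77, SE 0.68, edgeR adjusted p = 0.99). Without HFD replicate 8 its log2 fold change was -1.30 (edgeR adjusted p = 0.99). Pkm, the pyruvate kinase gene, ran from 28.8 to 40.1 CPM in chow and 27.4 to 50.6 CPM in HFD, and Eno1, the main enolase gene, from 10.7 to 47.5 and from 14.8 to 62.1 CPM. Pgam1, the mutase gene, had only 4 to 21 counts per chow library and 4 to 29 per HFD library. Eno2, the neuronal enolase gene, was not tested, with 0, 0, 2 and 0 counts in chow and 0, 14, 0 and 0 in HFD.

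Levels along the pathway are limited by copies of these genes. At 95% identity over at least 200 bases, 10 of the 33 genes matched transcripts of other annotated loci, and Gapdh matched 77. Of those 77, 74 had a row in the counts deposited, 16 of them with counts, and they held 318 counts over all libraries beside 9289 for Gapdh (3.31%). Such copies made up over 1% for no member but Gapdh. A second row named Eno1, which the annotation calls Eno1b, was at 0 in all libraries. How reads that fit several loci were counted is not given in the sources used here, so the levels of Gapdh, Pgk1, Pgam1, Eno1, Pkm, Ldha, Tpi1, Gpi1, Bnip3 and Bnip3l are uncertain. Exon bases were shared with another gene on the same strand for 15.3% of Pkm, 10.2% of Pfkm and 2.51% of Hif1a, and on the opposite strand for 22.3% of Bnip3 and 11.5% of Gpi1, and the counting is not stated to use strand.

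Ldha had like mean levels in both diets, whereas the lactate transporter genes had few counts or very uneven ones. Ldha, the lactate dehydrogenase subunit that favours lactate formation, was at 98.2, 131, 108 and 92.0 CPM in chow and 153, 42.4, 95.3 and 101 CPM in HFD, with HFD replicates holding both the highest and the lowest value (log2 fold change -0.13, SE 0.36). Slc16a3, which encodes the lactate exporter MCT4, was not tested and had 52, 7, 0 and 47 counts in chow and 1, 6, 0 and 63 in HFD. In each diet some libraries were near 10 CPM and others at or near 0. Slc16a1, which encodes MCT1, was not tested either, with 0, 1, 0 and 1 counts in chow and 39, 7, 19 and 1 in HFD. Summed by diet that is 2 counts against 66. Scaled for depth, HFD over chow was 32.0, and a 95% interval that treats counts as independent ran from 8.52 to 270.1. That interval leaves out the spread between libraries, and amplified counts are not independent molecules, so it understates the uncertainty. HFD replicate 5 held 39 of the 66 counts, and without it the ratio was 17.4. HFD replicate 8 was no higher than chow, so the diets overlapped. DESeq2, which kept this gene, gave an unadjusted p of 0.0085 and an adjusted p of 0.24. The edgeR fit without a filter gave an unadjusted p of 0.055 and an adjusted p of 0.43. The stellate cell and fibroblast sum beside it was 547, 352, 287 and 114 CPM in HFD replicates 5 to 8, also lowest in replicate 8. Unlike the Slc16a1 counts, it was higher in replicate 6 than in replicate 7. Within HFD the acinar and B cell sums were lowest in replicate 8 too, at 34.7 and 212 CPM. The part of other cells in the Slc16a1 values was not tested.

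**Figure D3:**
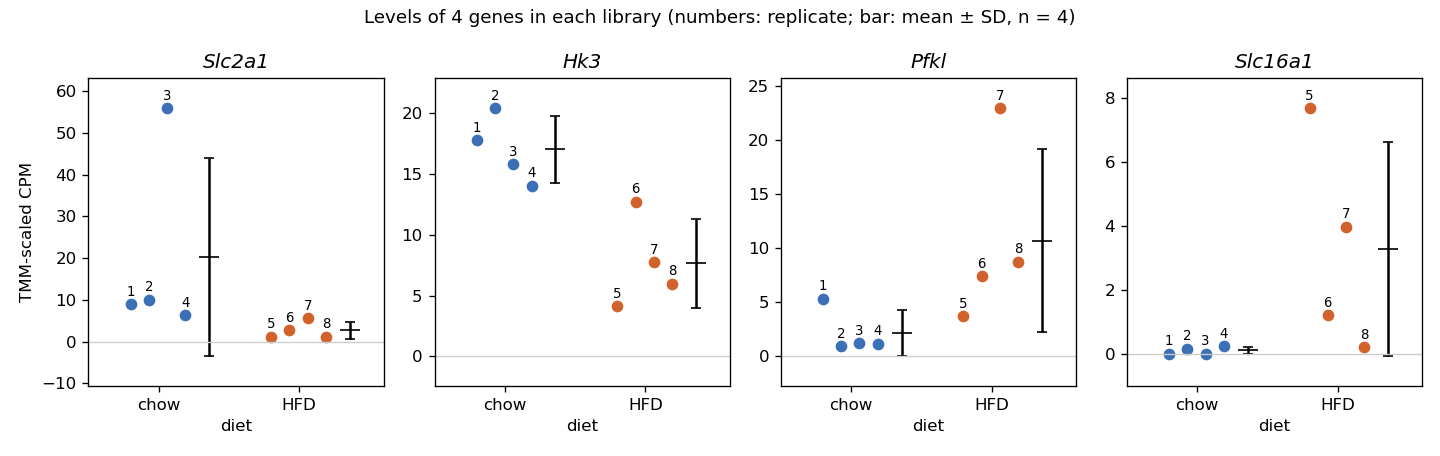
TMM-scaled CPM of Slc2a1, Hk3, Pfkl and Slc16a1 in the 4 chow (blue) and 4 HFD (orange) libraries, with replicate numbers and the mean ± SD in black. Chow replicate 3 lies at 55.9 CPM for Slc2a1, and HFD replicate 8 lies among the chow libraries for Slc16a1.

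The flux regulators were led by Pfkfb3, whose product makes fructose 2,6-bisphosphate and so activates phosphofructokinase-1. Pfkfb3 was at 163, 182, 68.7 and 66.5 CPM in chow and 114, 72.8, 134 and 89.8 CPM in HFD, with all HFD values inside the chow range (log2 fold change -0.23, SE 0.36). Pfkfb4, its paralogue, ran from 11.5 to 23.2 CPM in chow and 8.36 to 20.9 CPM in HFD, and Pfkfb3 held 64.9% to 91.1% of their summed level per kilobase in chow and 74.8% to 91.2% in HFD. Pdk1, the kinase that turns off pyruvate dehydrogenase, was at 11.1, 2.94, 7.61 and 2.57 CPM in chow and 21.3, 8.44, 1.88 and 20.7 CPM in HFD. HFD replicates 5 and 8 were high and HFD replicate 7 was the lowest of all (log2 fold change 1.11, SE 1.04, edgeR adjusted p = 0.99).

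Both HIF-1 subunits were well expressed, and with all libraries no tested gene of the oxygen-sensing loop had a log2 fold change beyond its SE. Hif1a was at 69.7, 53.4, 122 and 81.0 CPM in chow and 111, 88.2, 100.5 and 68.3 CPM in HFD, with all HFD values inside the chow range (log2 fold change 0.17, SE 0.35). Arnt was at 314, 100.3, 59.0 and 102 CPM in chow and 149.5, 198, 64.0 and 127 CPM in HFD, and chow replicate 1 stood above every other library (log2 fold change -0.09, SE 0.43). Without chow replicate 1 the Arnt value turned to 0.63 (SE 0.38, edgeR adjusted p = 0.95), and with the summed stellate cell and fibroblast genes as a covariate it was 1.15 (SE 0.66, edgeR adjusted p = 1.00). Per kilobase the means were 14.7 CPM for Hif1a and 17.4 CPM for Arnt, but their order differed between libraries. Arnt held 76.8% of the pair in chow replicate 1, 26.2% in chow replicate 3 and 31.9% in HFD replicate 7. Of the prolyl hydroxylase genes, Egln2 was at 11.1, 8.36, 8.22 and 7.02 CPM in chow and 32.5, 5.34, 10.2 and 9.16 CPM in HFD. A single library, HFD replicate 5, was high, and without it the log2 fold change moved from 0.72 (SE 0.91) to -0.07. Egln1, the main oxygen sensor of most cells, ran from 19.1 to 52.9 CPM in chow and 11.9 to 49.9 CPM in HFD. Egln3 had 0 counts in all 8 libraries, where 3 counts allow a level of up to 0.464 to 0.702 CPM per library. Vhl ran from 15.4 to 47.8 CPM in chow and 10.4 to 46.7 CPM in HFD.

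**Figure D4:**
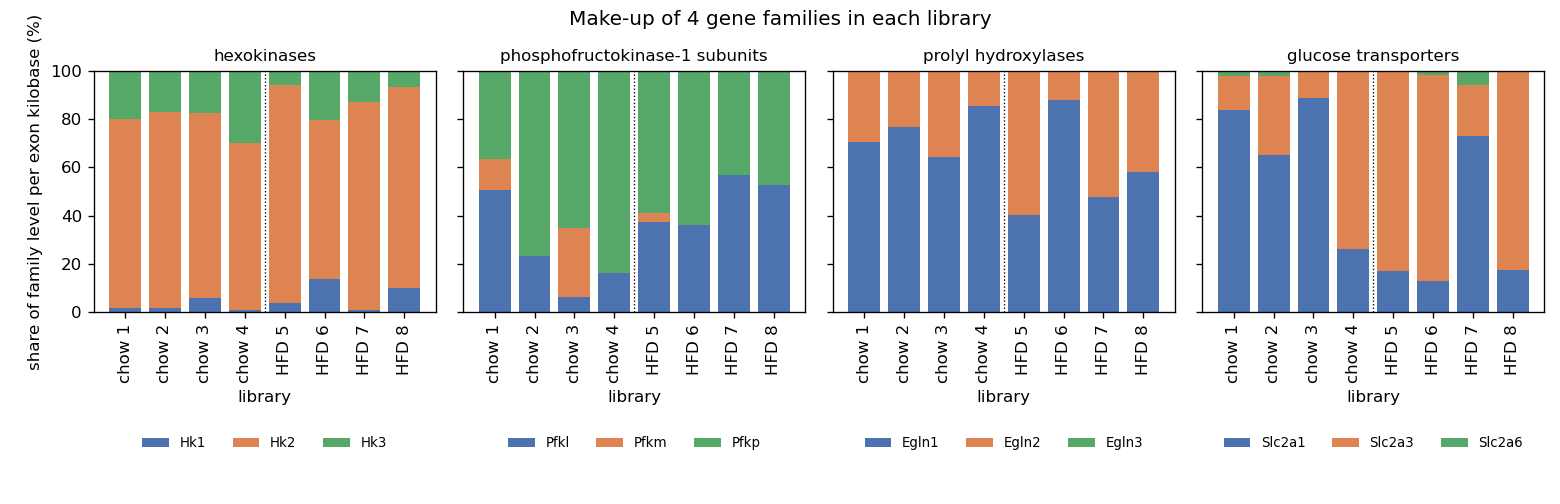
Share of each gene in the summed level per exon kilobase of its family, by library, with a dotted line between chow and HFD. Hk2 leads the hexokinases in every library (65.6% to 90.05%), and Slc2a1 is at 26.2% in chow replicate 4 and at 73.1% in HFD replicate 7, unlike the other libraries of those diets.

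Bnip3l, a mitophagy receptor gene under HIF control, was the second most abundant member per kilobase at 35.3 CPM. It was at 135, 81.7, 148 and 148 CPM in chow and 122, 150.2, 148 and 156 CPM in HFD, with overlap and a log2 fold change of 0.17 (SE 0.28). Its paralogue Bnip3 ran from 5.57 to 7.72 CPM in chow, a narrow range, and from 1.18 to 11.1 CPM in HFD (log2 fold change -0.52, SE 1.18). Without HFD replicate 7, its highest library, the value was -1.502 (SE 1.44, edgeR adjusted p = 1.00).

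Members differed in how much they varied between libraries of a diet. The SD of log2 (CPM + 1) within a diet had a median of 0.75 over the 26 tested members, beside 0.89 over all genes tested. It was lowest in Gapdh (0.16), Pkm (0.30), Bnip3l (0.31) and Hif1a (0.41), and highest in Slc2a3 (1.30), Hk1 (1.28), Tpi1 (1.21) and Pdk1 (1.15). No library was high throughout: HFD replicate 5 had the highest value for 6 tested members and the lowest for 7. The mean log2 (CPM + 1) of the tested members was 4.61 to 4.71 in the chow libraries and 4.54 to 4.74 in the HFD libraries.

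Other genes of the pathways around glycolysis were described from 6 lists, and 0 genes passed the edgeR threshold in either direction. Of pentose phosphate genes, 8 of 8 were tested, 4 with a higher and 4 with a lower fitted level in HFD. Those with the smallest p were H6pd, the glucose 6-phosphate dehydrogenase of the endoplasmic reticulum, Pgls and Pgd. H6pd averaged 8.64 ± 8.85 CPM on chow and 22.4 ± 25.8 CPM on HFD (SD, n = 4), Pgls 7.50 ± 10.4 and 2.96 ± 3.33 CPM, and Pgd 102 ± 53.2 and 81.3 ± 7.34 CPM. Of genes for pyruvate entry into mitochondria, 12 of 13 were tested, 7 higher and 5 lower. Dld, a subunit gene of pyruvate dehydrogenase, averaged 47.2 ± 13.7 CPM on chow and 82.1 ± 33.2 CPM on HFD (log2 fold change 0.80, SE 0.41, edgeR adjusted p = 0.94). The pyruvate dehydrogenase phosphatase genes Pdp2 and Pdp1 lay on opposite sides of 0, with log2 fold changes of -1.39 (SE 0.93) for Pdp2 and 0.97 (SE 0.90) for Pdp1. Pdk4, a paralogue of Pdk1, was not tested and had 0 counts in every chow library. In HFD it had 0, 3, 0 and 72 counts, so HFD replicate 8 held nearly all of the 75.

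Of other glycolysis isoenzymes and branch genes, 11 of 22 were tested, 6 higher and 5 lower in HFD. Bpgm, which makes 2,3-bisphosphoglycerate on a side path around Pgk1, had the smallest p of the list. It was at 16.0, 10.5, 53.9 and 11.7 CPM in chow and 4.53, 1.38, 2.09 and 2.99 CPM in HFD. Every HFD library was below every chow library, and chow replicate 3 was highest, as for Slc2a1 (log2 fold change -3.06, SE 0.96, edgeR adjusted p = 0.75). Bpgm is also known as a gene of red blood cells. Of 7 red blood cell markers, 6 were at 0 in every library, the haemoglobin genes included, and Alas2 reached at most 0.464 CPM. Whether red blood cells contribute to the Bpgm values was not tested. Minpp1, a phosphatase gene of the same side path, averaged 7.06 ± 6.61 and 17.7 ± 8.44 CPM, and Galm, the galactose mutarotase gene, 3.71 ± 4.11 and 10.6 ± 10.04 CPM.

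Of glycogen genes, 9 of 10 were tested, 4 higher and 5 lower. Stbd1, which tethers glycogen to membranes, averaged 30.4 ± 19.7 CPM on chow and 8.03 ± 8.01 CPM on HFD (log2 fold change -1.92, SE 0.93, edgeR adjusted p = 0.94), followed by the row named Pgm1, which GENCODE M21 calls Pgm2, at -0.81 (SE 0.94). Of further HIF pathway genes, 9 of 12 were tested, 4 higher and 5 lower. The genes for partners of VHL that had the smallest p were the elongin gene Tceb1 and Rbx1. Tceb1 averaged 45.7 ± 27.2 and 22.4 ± 6.96 CPM, and Rbx1 averaged 6.91 ± 5.25 and 19.6 ± 6.68 CPM. The coactivator gene Ep300 averaged 614 ± 41.6 and 533 ± 85.2 CPM.

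Of other hypoxia-induced genes, 12 of the 25 found were tested, 8 higher and 4 lower, beside 48.6% higher over all genes tested. Their log2 fold changes had a median of 0.45, beside -0.02 over all genes tested. Pfkfb2 and Gbe1, both higher, also stand on other lists. Plin2, a lipid droplet coat gene that lipids also induce, had the smallest p. It was at 48.6, 83.8, 201 and 106 CPM in chow and 303, 246, 184 and 251 CPM in HFD, where chow replicate 3 exceeded HFD replicate 7 (log2 fold change 1.16, SE 0.34, edgeR adjusted p = 0.71). Anxa2, an annexin gene, averaged 1.83 ± 1.39 and 10.2 ± 7.16 CPM, and Kdm3a, a histone demethylase gene, 81.6 ± 12.2 and 113 ± 35.9 CPM. Vegfa, chosen after its values were seen as the best known HIF target, averaged 9.30 ± 9.05 CPM on chow and 4.79 ± 1.86 CPM on HFD. Of the listed genes, Adm, Ak4, Car12 and Nos2 had 0 counts in all 8 libraries.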

How the data were processed

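The submitters' processing notes name FastQC, Trim Galore, STAR and the build GRCm38. Neither their versions nor the counting program, its annotation or its handling of reads with several matches is given in the sources used here. Values are the authors' expected counts per Ensembl gene, deposited unscaled. Between 7.66% and 8.32% of values above 0 were fractional, and all were rounded. RNA (500 pg) was amplified with a whole-transcriptome kit, and no molecular identifiers or strand setting are stated, so counts are not independent molecules.

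Genes were tested with edgeR (version 4.0.16) in R (version 4.3.3): TMM scaling, the filterByExpr filter, which kept 10129 genes, a robust quasi-likelihood fit with diet as the only term, two-sided, and Benjamini-Hochberg adjustment over all genes tested at 0.05. The edgeR fit was tested on simulated data. Levels are CPM scaled by library total and TMM factor, divided by exon length (GENCODE M21, GRCm38) where genes are compared. Copies were found with BLAST (version 2.17.0). Alternatives used DESeq2 (version 1.42.0), limma (version 3.58.1), other scalings and filters, left-out libraries and covariates.

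The members and lists were chosen with earlier results of these data known. Named in every library were the 8 tested members with the smallest p, those whose diets did not overlap, the 8 most abundant per kilobase and those not tested; of each further list, up to 3 genes with the smallest p, of which 1 is not reported here. The p-values measure the spread between pools of 2 mice.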

Additional observations from a re-analysis of the deposited data

Results flagged for a closer look

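In 9 of 64 member-by-diet groups the highest library stood apart from the other 3 by more than Dixon's 95% limit for 4 values. Chance flags about 1 in 20 groups of normally distributed values. CPM are skewed, and a group with counts in a single library, as for Pfkm in HFD and Eno2 in both diets, passes the limit by construction, so 9 of 64 is not to be read against that share. Of the 9, 3 were in tested members. Slc2a1 in chow replicate 3 was at 55.9 CPM, with the others at 6.32 to 10.1 CPM. Pfkl in chow replicate 1 was at 5.35 CPM, with the others at 0.929 to 1.23 CPM. Arnt in chow replicate 1 was at 313.9 CPM, with the others at 59.0 to 102 CPM.

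The other 6 were in genes with few counts. Aldoc reached 1.40 CPM in chow replicate 4 and 4.13 CPM in HFD replicate 6. Eno2 reached 0.411 CPM in chow replicate 3 and 2.41 CPM in HFD replicate 6. Pfkm was at 0.197 CPM in HFD replicate 5, which is 1 count, and Slc16a3 at 12.5 CPM in HFD replicate 8. No member was set apart by its lowest library.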

How the results depend on the processing

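No member was called under any setting run. Over all genes, calls went from 0 to 45 with no filter, 92 with DESeq2 and 1 with limma-voom, and leaving out 1 library gave 0 to 11, the 11 without HFD replicate 8. Members with a higher fitted level numbered 12, and 10 to 15 over the alternatives. Library totals in place of TMM moved the median of all genes from -0.02 to 0.05 and turned Slc2a3 (0.013), Gpi1 (0.034) and Gapdh (0.033) positive. With a stellate and fibroblast covariate the log2 fold change was 0.0030 for Hk2, 0.053 for Gpi1, -0.43 for Aldoa, -0.74 for Tpi1, 0.059 for Gapdh, -0.19 for Eno1, 0.28 for Pfkfb3, -0.33 for Hif1a and 1.15 for Arnt. This covariate was higher in HFD replicates 5 to 7 than in any chow library, so it is partly confounded with diet. With it the SE went from 1.03 to 2.05 for Tpi1, from 0.55 to 0.94 for Aldoa and from 0.44 to 0.72 for Gpi1. With an endocrine covariate the log2 fold change was 0.23 for Gpi1 and 0.39 for Arnt, and in limma-voom -0.092 for Eno1 and 0.18 for Arnt. Leaving out 1 library gave ranges across 0 of -0.87 to 0.76 for Slc2a3, -0.33 to 0.18 for Gpi1, -0.16 to 0.71 for Aldoa, -0.12 to 0.050 for Gapdh, -0.29 to 0.59 for Pgam1, -0.35 to 0.47 for Eno1, -0.025 to 0.28 for Pkm, -0.43 to 0.12 for Ldha, -0.43 to 0.045 for Pfkfb3, -0.35 to 0.63 for Arnt, -0.72 to 0.14 for Vhl and -0.071 to 0.99 for Egln2. The cause was not tested. The other tested members, Slc2a1, Hk3 and Pfkl among them, kept their sign under every setting in which they were fitted, but not their size. With the stellate and fibroblast covariate Slc2a1 was -3.95 (edgeR adjusted p = 1.00), Pfkl 4.12 (1.00), Pfkp 0.16, Slc2a3 -1.25 and Vhl -0.95. With the endocrine covariate Slc2a3 was -0.67, Hk1 0.42 and Pfkl 3.11, and in limma-voom Slc2a1 was -2.30 and Bnip3 -1.12. Without chow replicate 3 Hk1 was 1.74 and Pfkp 1.37, and without HFD replicate 7 Slc2a1 was -3.55. Leaving out 1 library, an alternative chosen after seeing the data for Slc16a1, gave count ratios of 17.4 to 50.4, the latter without chow replicate 4. No paired analysis was possible because the replicate numbers of the diets, 1 to 4 and 5 to 8, are not shared. Low counts limit the 7 members not tested and several tested ones, Pgam1 among them. Slc2a1 had 6, 16, 27 and 6 counts in the HFD libraries, and Pfkl had 24, 6, 6 and 5 in the chow libraries. Bnip3 had 6, 7, 53 and 22 in HFD, and Hk1 and Tpi1 each fell to 5 counts in a library.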

Other observations

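G6pc2, on the beta cell list, was chosen here after its values were seen. It encodes an islet glucose 6-phosphatase, which opposes the hexokinase step. It had 2.00, 2.01, 0.617 and 5.85 CPM in the chow libraries and 38.4, 16.7, 31.3 and 12.1 CPM in the HFD libraries, all higher (log2 fold change 3.23, SE 0.96, edgeR adjusted p = 0.74). The summed beta cell genes overlapped between diets, but Ins1 and Ins2 led that sum, with means of 418 and 244 CPM on chow and 429 and 245 CPM on HFD. On the beta cell list Iapp had a higher mean in HFD (85.5 against 45.8 CPM) and Slc30a8 a lower one (18.3 against 25.5 CPM). Pcsk2, on the other endocrine list, was also chosen after its values were seen. It was at 8.24, 11.3, 1.23 and 15.2 CPM in chow and 24.8, 34.3, 47.4 and 53.4 CPM in HFD (log2 fold change 2.15, edgeR adjusted p = 0.75). On the other endocrine list Ttr, Chga and Scg2 had lower means in HFD. Whether endocrine RNA contributes to the G6pc2 values was not tested.

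Car9, which encodes a carbonic anhydrase that HIF-1 induces, was also chosen after its values were seen. It had 0, 1, 0 and 1 counts in the chow libraries and 7, 25, 0 and 0 counts in the HFD libraries, so the diets overlapped. Me1, the malic enzyme gene, had 0 counts in every chow library and 1, 17, 15 and 0 counts in the HFD libraries. Untested genes of the same lists also went the other way. Higd1a had 182 counts in chow and 33 in HFD, Slc2a8 138 and 27, and Eno3 29 and 7, with overlap between diets for each.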
